A study of Bos taurus with 8 samples.

Results

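The genes described here are 10 genes of the exocrine pancreas, 9 secreted digestive enzymes and the granule membrane protein GP2, in cattle liver samples measured on microarrays. They are the serine proteases PRSS1, PRSS2, CTRB2 and CELA1, the carboxypeptidases CPA1 and CPB1, the lipid hydrolases CEL, PNLIPRP2 and PLA2G1B, and GP2. They were chosen by their level on 1 array, the 0 g array of animal 23, so that level is given as a description and is not tested. Of the 10, 8 were found by their name in the array files. The other 2, CTRB2 (named CTRB1 in the files) and PRSS1 (named LOC780933), were found by the transcript accession of the probe, matched to RefSeq gene names. Each gene had 1 probe, out of 15008 probes with 14960 distinct names in all.

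The samples came from a trial of an egg-yolk antibody against bacterial lipopolysaccharide, placed in the rumen of Holstein bulls that were fed grain to bring on subacute ruminal acidosis. The 11 cattle of the trial were 5 to 6 months old and ate hay for 11 days, then a high-grain diet (50% concentrate and 50% soybean flakes) for 2 days, then hay for 1 day. They received 0, 2 or 4 g of the antibody product per head daily for 14 days through a rumen fistula, in a Latin square. The arrays analysed here hold 4 bulls (numbers 19, 20, 23 and 24) at 2 days after the challenge, with an array at either dose from each bull, which gives 4 arrays per dose. All bulls shared the breed, the fistula, the diet change and the challenge, and the 2 g dose was not analysed here. The labels give the tissue as liver, while the extraction protocol in them names rumen epithelium.

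The acinar cells of the pancreas make the digestive enzymes of the small intestine, store most of them as inactive zymogens in granules and release them into the duct after a meal. Trypsin, once cut by an intestinal enteropeptidase, activates the other protease zymogens. The liver is not known as a site of these enzymes in bulk, and its hepatocytes make plasma proteins and handle metabolites from the gut.

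The probes are 60-base DNA sequences, and 4 are shown here as examples, those of both trypsinogens, a carboxypeptidase and the bile salt-activated lipase. They are printed 5′ to 3′ as synthesised on the array, in lower case, and capitals mark the longest run of bases that a probe shares with any of the other 9 probes on either strand. Coordinates are those of the files, on the cattle assembly UMD 3.1.
PRSS2, chr4:106891121-106891180, plus strand: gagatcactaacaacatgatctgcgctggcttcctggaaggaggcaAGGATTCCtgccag
PRSS1, chr4:106358186-106358245, minus strand: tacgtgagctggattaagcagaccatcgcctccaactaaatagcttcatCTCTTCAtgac
CPB1, chr1:120279066-120279125, minus strand: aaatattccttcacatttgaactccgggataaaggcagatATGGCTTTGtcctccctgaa
CEL, chr11:103110141-103110200, plus strand: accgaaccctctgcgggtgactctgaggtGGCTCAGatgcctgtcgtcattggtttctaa
Over the 10 probes the longest shared run was 7 to 9 of 60 bases, so no pair of these probes shared a long stretch of letters. Their GC content ran from 35.0% to 60%, around the median of 45.0% over all probes. The remaining probes lie at chr4:94949915-94949974 (CPA1), chr18:2590749-2590808 (CTRB2), chr5:28636939-28636998 (CELA1), chr26:37366129-37366188 (PNLIPRP2), chr17:64899595-64899654 (PLA2G1B) and chr25:18102972-18103031 (GP2). Exons and untranslated regions around the probes were not used here.

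A level below means log2 of the processed spot signal minus log2 of the 75th percentile of that array, so 0 is the 75th percentile, and a signal means the processed signal on its linear scale. The 75th percentile ran from 125.8 to 311.7 and the share of probes well above background, a flag the scanner software sets per spot, from 64.4% to 80.4%, the highest being the 0 g array of animal 23. All 8 arrays lay on 1 slide, in 2 rows of 4. Row 1 held animals 19 and 20 and row 2 held animals 23 and 24, in the order 0 g and 4 g within an animal, so slide row and animal cannot be told apart. Of 26 hepatocyte genes, 24 were well above background on every array, with a mean level of 4.64 on the 0 g array of animal 23 and 4.55 to 5.04 on the other 7. Of 23 genes of rumen and squamous epithelium, 13 were above background on at least 1 array. Among basal epithelial genes KRT5 was above background on all 8 arrays and KRT15 on 7, TP63 and KRT14 on none.

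The arrays were also compared in pairs, over 9268 probes well above background on all 8 arrays, for probes whose 4 arrays in a slide row fell into 2 levels (partners less than 0.5 log2 units apart, pairs more than 1.5 apart). In row 2, 0 probes paired the arrays by animal, 19 paired the 0 g arrays with each other and the 4 g arrays with each other, and 2 paired them the remaining way. In row 1, 10 probes paired them by animal, 0 by dose, and 193 paired the arrays with the lowest 75th percentiles, those of animal 19 at 4 g and animal 20 at 0 g. The animal labels of row 2 therefore have no probe of this kind on their side, and the arrays are called by their labels throughout.

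All 10 genes were far higher on the 0 g array of animal 23 than on any other array. Their levels there ran from 6.66 (CELA1) to 8.72 (CEL), and their signals from 27537 to 114891. The gap, that is the level on this array minus the highest of the other 7, was 7.94 to 12.38 log2 units with a median of 10.04. With normexp, another background correction, it was 6.96 (CELA1) to 9.13 (CEL), and 8 of the 10 gaps were smaller by more than 1 SD of the other 7 arrays. The gap was over 2 for 10 of 10 genes, and over 2 for 1.32% of all probes above background on at least 1 array (166 of 12598); since this gap chose the genes, nothing is read from that count. No spot of the 10 was saturated or marked as an outlier on any array. In bulk samples such as these, a smaller number of cells of a type and less RNA per cell cannot be told apart.

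**Figure D1:**
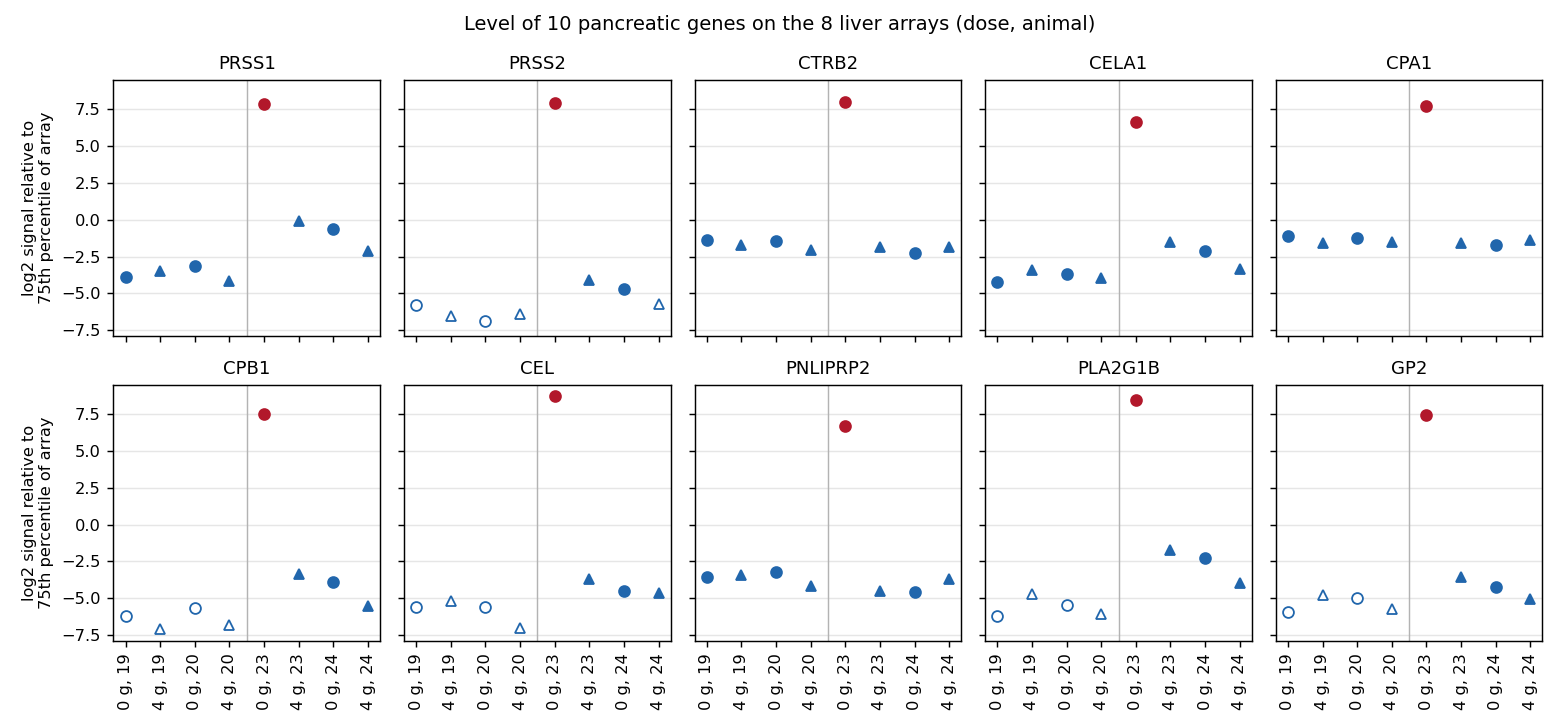
Level (log2 signal over the array's own 75th percentile) of the 10 genes on each of the 8 arrays, with 0 g arrays as circles, 4 g arrays as triangles, the 0 g array of animal 23 in red, open symbols where the spot was not well above background, and a grey line between slide rows 1 and 2. The red point of every gene lies between 6.66 and 8.72, and every blue point lies below 0.

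PRSS1 and PRSS2 are trypsinogens, the zymogens of trypsin, which cleaves proteins after lysine and arginine. The level of PRSS1 was 7.84 on the 0 g array of animal 23, −0.10 and −0.65 on the 4 g array of animal 23 and the array of animal 24 at 0 g, −2.15 on the 4 g array of animal 24, −3.89 and −3.46 at 0 g and 4 g in animal 19, and −3.14 and −4.16 at 0 g and 4 g in animal 20. The gap was 7.94, or 246-fold, and the 4 g array of animal 23 was itself 3.04 above the highest array of row 1. PRSS1 was well above background on all 8 arrays, with signals of 11.4 to 290 outside the 0 g array of animal 23 and 62544 on it.

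For PRSS2 the level was 7.91 on the 0 g array of animal 23, −4.11 on the 4 g array of animal 23, −4.70 and −5.76 at 0 g and 4 g in animal 24, −5.83 and −6.52 in animal 19, and −6.85 and −6.40 in animal 20. It was well above background on 3 arrays, the highest and its neighbours in the row, and its gap of 12.02 was 4163-fold. With normexp that gap was 8.33. By a looser rule on the pixels of a spot, described below, PRSS2 was above background on 6 arrays.

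CTRB2 is a chymotrypsinogen, the zymogen of the protease that cleaves after large aromatic residues. Its level was 7.998 on the 0 g array of animal 23 and −1.88 at 4 g in the same animal, −1.40 and −1.71 at 0 g and 4 g in animal 19, −1.45 and −2.09 in animal 20, and −2.28 and −1.86 in animal 24. Outside the highest array the values spanned less than 1 log2 unit, and the arrays of both slide rows overlapped. CELA1 is a pancreatic-type elastase, which cleaves after small residues. The level of CELA1 was 6.66 on the 0 g array of animal 23, −1.53 on the 4 g array of animal 23, −2.14 and −3.38 in animal 24, −4.20 and −3.39 in animal 19, and −3.72 and −3.94 in animal 20. CELA1 was above background on all 8 arrays, like CTRB2, but its 4 arrays of row 1 lay below both the 4 g array of animal 23 and that of animal 24 at 0 g.

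CPA1 and CPB1 are procarboxypeptidases, which trim single residues from the end of a peptide, CPA1 the aromatic and aliphatic ones and CPB1 the basic ones. CPA1 stood at 7.71 on the 0 g array of animal 23 and −1.57 at 4 g in the same animal, −1.095 and −1.59 in animal 19, −1.25 and −1.50 in animal 20, and −1.70 and −1.36 in animal 24. The 7 lower arrays differed by little, with an SD of 0.21 and signals of 41.7 to 114.6. CPB1 stood at 7.54 on the 0 g array of animal 23, −3.38 at 4 g in that animal, −3.87 and −5.51 in animal 24, −6.24 and −7.09 in animal 19, and −5.64 and −6.83 in animal 20. CPB1 was above background on the 4 arrays of row 2 and on none of row 1, where its signals were 0.926 to 3.25.

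CEL is the bile salt-activated lipase, which hydrolyses cholesteryl esters and other lipid esters. It had a gap of 12.38 log2 units or 5314-fold (9.13 with normexp), with a level of 8.72 on the 0 g array of animal 23, −3.66 at 4 g in that animal, −4.53 and −4.63 in animal 24, −5.62 and −5.18 in animal 19, and −5.56 and −7.03 in animal 20. CEL was above background on the 4 arrays of row 2 and on none of row 1.

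PNLIPRP2 is a lipase that also acts on galactolipids, the lipids of green plants. The level of PNLIPRP2 was 6.69 on the 0 g array of animal 23 and −4.48 at 4 g in that animal, −4.58 and −3.70 in animal 24, −3.54 and −3.39 in animal 19, and −3.19 and −4.14 in animal 20. The 4 g array of animal 23 and the array of animal 24 at 0 g were the lowest of the 8 here, below every array of row 1. PLA2G1B is the secreted phospholipase of pancreatic juice. The level of PLA2G1B was 8.50 on the 0 g array of animal 23, −1.69 at 4 g in that animal, −2.23 and −3.97 in animal 24, −6.18 and −4.72 in animal 19, and −5.43 and −6.05 in animal 20. All 3 other arrays of row 2 lay above the row 1 arrays, none of which was above background.

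GP2 is no enzyme but the most abundant membrane protein of the zymogen granule, held by a lipid anchor. Its level was 7.45 on the 0 g array of animal 23, −3.57 at 4 g in that animal, −4.25 and −5.02 in animal 24, −5.96 and −4.75 in animal 19, and −5.00 and −5.75 in animal 20. Like CPB1 and CEL, GP2 was above background on the 4 arrays of row 2 and on none of row 1.

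Relative to the mean of the 4 row 1 arrays, the 0 g array of animal 23 was 538-fold higher for CPA1, 808-fold for CTRB2, 1223-fold for PNLIPRP2, 1417-fold for CELA1 and 2900-fold for PRSS1. For the other 5 genes only a bound could be given, since no row 1 array was above background. The bound set each row 1 array to the lowest level of any probe above background there, or to the gene's own level if that was higher. It was at least 6444-fold for GP2, at least 6967-fold for CPB1, at least 8992-fold for PRSS2, at least 13225-fold for PLA2G1B and at least 15369-fold for CEL.

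The spots of the 10 genes were spread over the array, from grid row 50 to 174 and grid column 12 to 79. The 78 spots touching them had median differences of −0.16 to 0.24 between the 0 g array of animal 23 and the median of the other 7 arrays, against 9.21 to 13.90 for the gene spots themselves. By their medians, the neighbouring spots did not share the high signal. The local background around the gene spots was 23.0 to 32.5 on that array and 17.0 to 26.0 on the others.

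A steady signal, well above background on all 8 arrays, was found for 5 of the 10 genes: PRSS1, CTRB2, CELA1, CPA1 and PNLIPRP2. Among all probes the share was 61.8% (9268 of 15008), so the genes were near that background. A looser rule, the mean pixel signal over the local background plus 2.6 SD, added CEL and GP2 and gave 7 of 10.

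These 5 genes differed in how even they were. Over the 7 arrays other than the 0 g array of animal 23, the SD of the level was 0.21 for CPA1 and 0.32 for CTRB2, both below the median of 0.38 over the 9268 probes above background on all arrays. PNLIPRP2 followed with an SD of 0.54, above that of 74.7% of those probes. For CELA1 the SD was 0.98 and for PRSS1 1.60, above that of 96.7% and 99.8% of those probes. Being above background on every array thus went with an even level in CPA1 and CTRB2 and with an uneven one in CELA1 and PRSS1.

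The unevenness followed the slide rows, a comparison chosen after the values had been seen. On both the 4 g array of animal 23 and the array of animal 24 at 0 g, the level was above all 4 arrays of row 1 for 7 of the 10 genes (PRSS1, PRSS2, CELA1, CPB1, CEL, PLA2G1B and GP2), and this held for 10.2% of the probes above background on at least 1 array. In all 7 the 3 arrays kept the order of their positions, the 4 g array of animal 23 highest, the 0 g array of animal 24 next and the 4 g array of animal 24 lowest, which together with the first condition held for 3.48% of probes. All 3 arrays were above row 1 for 6 of the 10 genes, against 5.73% of probes, with PRSS2 among the 6 although its spot on the 4 g array of animal 24 was not above background. Among the 44 probes with a gap over 5 log2 units, which include the 10, the first condition held for 12 (27.3%). Of these 12 probes, 7 are those of the genes just named.

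This count rested on the background correction. With normexp correction (offset 50) in place of the scanner software's, the condition held for 1 of the 10 genes, PRSS1, against 9.63% of probes. The count was 7 again with quantile normalization (13.5% of probes), the authors' deposited value table (10.2%) and without the arrays of the lowest 75th percentiles (17.6%), so the share of all probes rose too in the first and last of these.

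The signals of the 7 genes were smaller with each position along the row. The 4 g array of animal 23 had 0.0215% to 0.464% of the signal of the 0 g array of animal 23, the 0 g array of animal 24 had 0.0117% to 0.316%, and the 4 g array of animal 24 had 0.00788% to 0.0810% over the 6 genes above background there, PRSS2 left out. The ratio of the 4 g array of animal 23 to the 0 g array of animal 24 was 1.41 to 1.83 over the 7 genes, with a median of 1.51. From the 0 g to the 4 g array of animal 24 the ratio was 1.49 to 4.61 over those 6 genes. On the scaled level CPA1, CTRB2 and PNLIPRP2 did not keep this order. In the signal, CPA1 (ratios of 1.099 and 1.096) and CTRB2 (1.32 and 1.04) did fall along the row, with smaller ratios for the first pair than the 7 genes. PNLIPRP2 did not (1.08 and 0.755). These ratios and percentages are of signals not scaled between arrays. The 75th percentile was 273.1 and 311.7 on the 0 g and 4 g arrays of animal 23. In animal 24 it was 310.7 and 224.3, so part of the second ratio lies in the arrays. On the scaled level CEL was at −4.53 and −4.63 at 0 g and 4 g in animal 24. Animal and slide row cannot be told apart here. Within a row each position holds its own animal and dose, so position cannot be told apart from these either.

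Not every abundant transcript of the highest array showed this order. LOC618826, a chymotrypsinogen B1-like gene picked after its values had been seen, had a signal of 47009 on the 0 g array of animal 23 and of 1.01 to 1.32 on all other arrays. It was above background on that array only, so its gap has a bound alone, at least 12.12 log2 units when each other array is set to no less than the lowest level of any probe above background there.

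**Figure D2:**
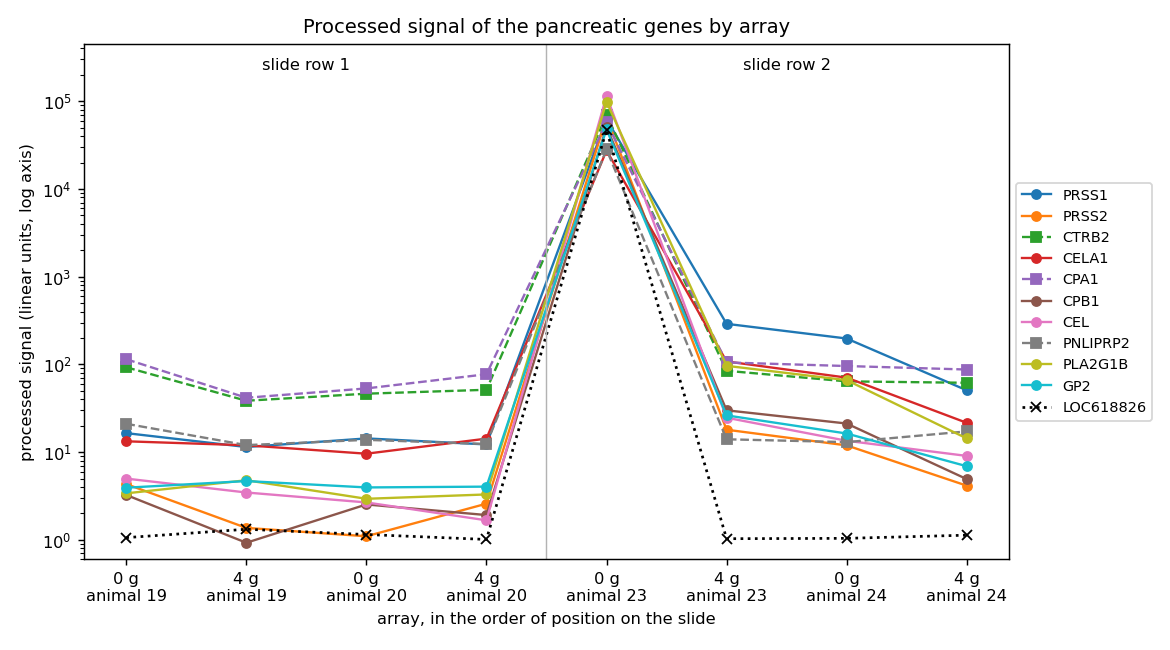
Processed signal (linear units on a log axis) of the 10 genes and of LOC618826 on the 8 arrays, set in the order of their positions on the slide; solid lines mark the 7 genes whose signal on the 4 g array of animal 23 and the array of animal 24 at 0 g lay above all of row 1, dashed lines CPA1, CTRB2 and PNLIPRP2, and the dotted line LOC618826. After the peak of 27537 to 114891 on the 0 g array of animal 23, the solid lines step down along row 2. Of the dashed lines, those of CPA1 and CTRB2 fall by smaller steps and that of PNLIPRP2 ends higher. The dotted line lies between 1.01 and 1.32 outside the 0 g array of animal 23.

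Other products of acinar cells were high on the same array. Of 28 listed secretory products 18 were on the array, and 17 of them had a gap over 2, with a mean level of 5.02 on the 0 g array of animal 23 and −5.62 to −4.56 on the others. All 18 were above background on that array, against 3 to 12 on the others. The exception was REG3G, at −4.02 with a gap of 1.32. With the same bound on the other arrays, 16 of the 17 kept a gap over 2, the colipase CLPS not among them. By that bound the gap was at least 12.66 for SYCN, a granule protein, 11.96 for the chymotrypsinogen CTRC, 11.24 for the main pancreatic lipase PNLIP and 11.74 for the amylase AMY2A. For 3 of 18 genes (CELA2A, CELA3B and REG3A), against the 10.2% of probes given above, the level was above all of row 1 on both the 4 g array of animal 23 and the array of animal 24 at 0 g.

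Both inhibitors that acinar cells secrete, already counted among the secretory products above, were high. SPINK1, the trypsin inhibitor of pancreatic juice, stood at 6.76 against −6.66 to −4.78 (gap 11.54, at least 11.45 by the bound), and the serpin SERPINI2 at 5.78 against −7.16 to −5.64 (gap 11.42, at least 10.47). These were the only 2 of 12 activators and inhibitors of the proteases with a gap over 2. TMPRSS15, the intestinal enteropeptidase that activates trypsinogen, stood at −4.91 against −8.37 to −6.07, and SPINK4 at −5.47 against −8.19 to −6.38, each above background on 1 array.

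Regulators of acinar cells were measured through 6 of 7 listed transcription factors, of which 2 had a gap over 2. PTF1A, which drives acinar enzyme genes together with RBPJL, stood at 1.96 on the 0 g array of animal 23 and −5.55 to −3.66 elsewhere (gap 5.62). RBPJL stood at −3.56 against −6.10 to −5.59 (gap 2.03, at least 1.13). XBP1, a factor of the secretory pathway in many tissues, stood at 5.69 against 4.50 to 5.16, and GATA4 at 1.74 against 0.70 to 1.26. GATA6 at 1.02 and NR5A2 at −3.54 lay within the range of the other arrays. Of 14 receptors and parts of the secretion machinery, 2 had a gap over 2, TMED6 (3.73) and the stress protein NUPR1 (2.99), while SEL1L had 0.86 and CCKAR, the cholecystokinin receptor, stood at −4.97 and was above background on this array only.

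Islet genes were higher on this array as well, with smaller gaps. Of 24 islet genes on the array, 8 had a gap over 2, 4 of them also by the bound, and the mean level was −2.86 there and −5.89 to −4.95 elsewhere. PPY, pancreatic polypeptide, had a gap of 6.92 and the granule protein SCG5 one of 4.88. The transcription factor PAX6 and the granule protein CHGA, above background on this array only, had gaps of at least 3.95 and 1.93. Insulin, INS, also above background on this array only, stood at −3.46 against −8.36 to −6.53, a gap of at least 1.23. Somatostatin, SST, was above background on no array. Both INS and SST were singled out after their values were seen.

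Of 14 duct genes, 1 had a gap over 2, the mucin MUC1 at 2.39 against −5.57 to −2.76. Lower than on all other arrays were 4 of the 14, among them BICC1 and SPP1, as were 14.2% of the probes above background on at least 1 array. The mean level of the duct list was −1.51, between −2.17 and −1.47 on the others. Of 19 genes of the abomasum and small intestine, 2 had a gap over 2, the trefoil factors TFF2 (2.97, at least 1.20) and TFF3 (2.80, at least 2.69), with MEP1A at 1.67 and PGA5 at 1.52. Their mean was −3.88 against −4.90 to −4.08. Of 6 salivary genes, 1 had a gap over 2, the water channel AQP5 (2.44), with LPO at 0.92. The mean of the 6 was −4.70 against −6.77 to −5.05.

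No hepatocyte gene and no gene of rumen or squamous epithelium had a gap over 2. The 26 hepatocyte genes had a median difference of −0.13 between the 0 g array of animal 23 and the median of the others, and 7 of them, among them APOA1, APOB, ARG1 and RBP4, were lower there than on all other arrays, as were 17.8% of the probes above background on all 8 arrays (1649 of 9268). The epithelial list had a mean of −5.03 there and −5.64 to −3.93 elsewhere, the highest being the 0 g array of animal 19. The part of another cell type in the levels of the 10 genes was not tested.

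**Figure D3:**
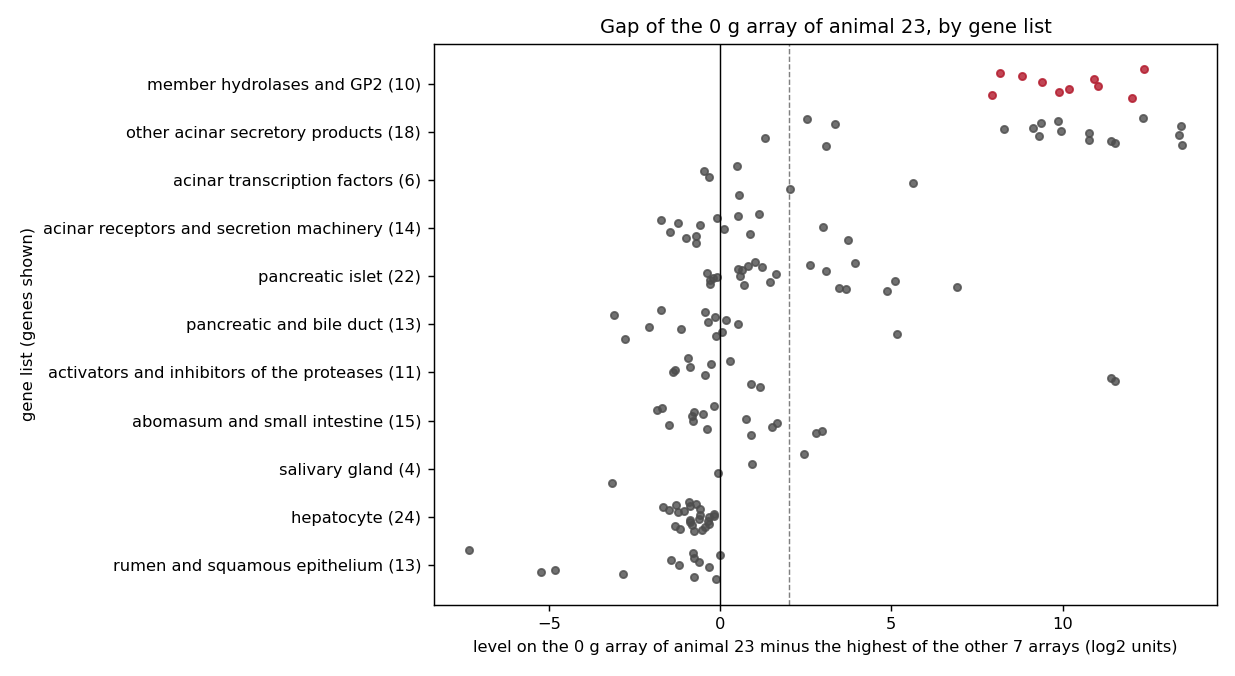
Gap (level on the 0 g array of animal 23 minus the highest of the other 7 arrays, log2 units) of each gene above background on at least 1 array, by gene list, with the number of genes shown in brackets, the 10 genes in red and a dashed line at 2; where a gene was not above background on the other arrays, its point rests on values below background. The 10 genes lie at 7.94 to 12.38 and most of the other acinar secretory products beside them, while all hepatocyte genes lie below 0. Genes on more than 1 list, such as SPINK1 and SERPINI2, are shown in each.

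The genes most like the 10 were found by Pearson correlation of their levels with the mean level of the 10 over the 8 arrays. Since 1 array dominates this mean, the coefficient mostly records which genes are high on that array, and it is given without a test. Over 12558 probes, 9 genes tied at 0.99, and the 8 with the widest gap were SYCN, CTRC, SPINK1, SERPINI2, TMPRSS9, CELA2A, SLC31A2 and LDAF1. All but the last pair were above background on at most 3 of the 8 arrays. The membrane-bound protease TMPRSS9 had a gap of 9.96 and the elastase CELA2A one of 9.86. SLC31A2 (2.56) and LDAF1 (1.62) had far narrower ones and were above background on all 8 arrays.

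Relatives of the 10 genes and 1 ribonuclease were picked after their values had been seen. The carboxypeptidase CPA5 had a gap of 11.06, and a probe that the files name RNASE1, after the pancreatic ribonuclease, had one of 10.77. CPB2, a carboxypeptidase that the liver secretes into plasma, stood at 3.503 on the 0 g array of animal 23, within 2.22 to 3.83 on the others. CPA3 of mast cells stood at −5.69 against −7.87 to −5.76, and ELANE of neutrophils at −3.66, within −4.36 to −3.36. UMOD, the relative of GP2 known from the kidney, stood at 2.67 against −6.98 to −5.16 (a gap of at least 7.36).

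The study compared 4 g with 0 g of the antibody, and since the choice of the 10 genes used the 0 g array of animal 23, this was tested in animals 19, 20 and 24 alone. Within each animal 4 g minus 0 g was formed on the level, and limma was fitted with the animal as a block to the 10848 probes that were above background on 3 or more of those 6 arrays. Of the 10 genes 5 passed that filter, and 0 were called at an adjusted p under 0.05. Over all probes 0 were called (0%), and 50 (0.461%) had an unadjusted p under 0.05, none of them among the 5. The p-values measure the spread of the 4 g minus 0 g difference between animals 19, 20 and 24, with 1 array per dose in each animal. The variance of each probe was drawn by limma towards that of all probes.

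For PRSS1 the difference was −0.69 (SE 0.46, 95% interval −1.81 to 0.43, limma adjusted p 1.00, n = 3 animals), with 0.43, −1.02 and −1.49 in animals 19, 20 and 24. It was higher at 4 g in 1 of the 3. For CELA1 it was −0.22 (SE 0.46, interval −1.35 to 0.92), with 0.81, −0.22 and −1.24 in the 3 animals. Animal 24 had the most negative value for both the trypsinogen and the elastase.

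CPA1 differed by −0.14 (SE 0.34, interval −0.97 to 0.70), with −0.50, −0.25 and 0.34 in animals 19, 20 and 24. For CTRB2 the difference was −0.18 (SE 0.36, interval −1.06 to 0.70), with −0.31, −0.64 and 0.42. PNLIPRP2 differed by 0.028 (SE 0.44, interval −1.04 to 1.097), with 0.15, −0.95 and 0.88. The limma adjusted p was 1.00 for each of these and for CELA1. No gene had the same sign in all 3 animals, and every interval held 0. Of the 5 genes 1 was higher and 4 were lower at 4 g, with a median of −0.18. Over all 10848 probes, 6362 were higher and 4486 lower, with a median of 0.04. Animal 24 lies in the slide row where no probe paired the arrays by animal. Without it, the differences were −0.29 for PRSS1, 0.30 for CELA1, −0.37 for CPA1, −0.47 for CTRB2 and −0.40 for PNLIPRP2, and 0 of the 5 were called.

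The other 5 genes (PRSS2, CPB1, CEL, PLA2G1B and GP2) were above background on too few of the 6 arrays to be tested. CPB1 was lower at 4 g in all 3 animals, by −0.85, −1.19 and −1.63, at levels mostly below background. CEL averaged −5.24 ± 0.61 at 0 g and −5.61 ± 1.26 at 4 g (SD, n = 3). For both genes the values at 0 g and 4 g overlapped.

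With animal 23 included, the differences were set by its 0 g array and are a description only. Within animal 23, 4 g minus 0 g was −7.94 (PRSS1) to −12.38 (CEL). Over all 4 animals it was −2.21 (CELA1) to −3.65 (CPB1) for the 9 genes that passed the filter there, PRSS2 not among them. CEL then averaged −1.75 ± 6.99 at 0 g and −5.13 ± 1.42 at 4 g (SD, n = 4).

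**Figure D4:**
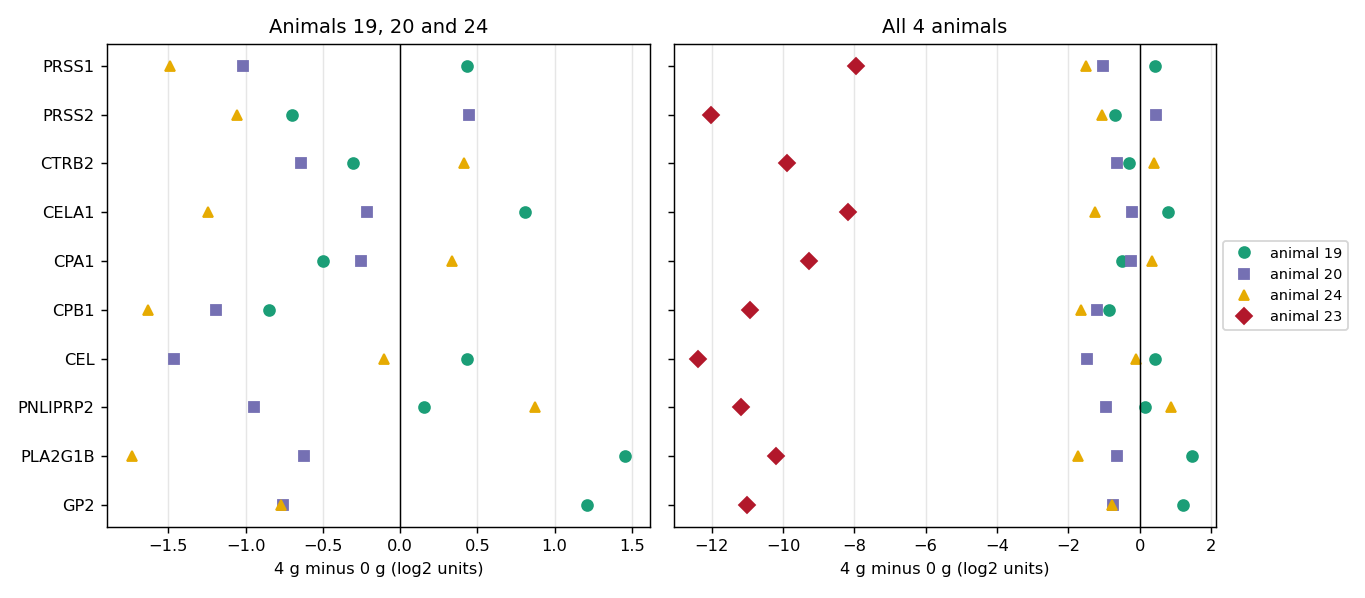
Difference in level between 4 g and 0 g (log2 units) of the 10 genes in each animal, on the left for animals 19, 20 and 24 and on the right for all 4 animals on a wider axis. On the left the points lie on both sides of 0 for every gene but CPB1, and on the right animal 23 lies between −12.38 and −7.94.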

How the data were processed

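Total RNA labelled with Cy3 was hybridised to 1-colour Agilent arrays, 1 per sample. Per the file headers, the intensity values the authors deposited are processed signals of Agilent Feature Extraction 11.0.1.1, background-subtracted and not scaled between arrays; the submitters' processing notes name version 9.5. The deposited value table holds log2 values of the authors, centred on the 75th percentile (r of 1.00 with the log2 signal of each array). The flags for spots above background, saturated and outlier spots are those deposited in the files. Of 15646 features 536 controls were left out, and 48 outlier spots were set to missing. From the signal, log2 was taken and the 75th percentile of the 15110 remaining spots subtracted, and spots of the same probe were averaged (15008 probes).

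Names came from the transcript accession through RefSeq (assembly ARS-UCD2.0, names alone) for 11194 probes, from a symbol for 3085 and from a synonym for 44. The 10 genes, the gene lists and the tests were chosen with earlier results of these data known. Named genes are all 10 and, per list, up to 4 with the widest gap on either side of the other arrays (all transcription factors), the 8 genes with the most similar pattern, and those said to be picked later. Of these, 1 gene is not reported here.

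For the dose difference, limma version 3.58.1 (R 4.3.3, data.table version 1.17.8) ran lmFit and eBayes as a 2-sided test with Benjamini-Hochberg adjustment over all probes tested and the animal as a block, after a test on simulated data; other steps used pandas 2.3.3, numpy 2.4.6 and matplotlib 3.10.9. The pairing comes from the labels alone, which give both arrays of a pair the same animal. Deviations of the arrays of an animal from the dose means correlated at −0.19 and −0.18 in animals 19 and 20 and at 0.21 and 0.13 in animals 23 and 24. Over the 6 arrays of the dose test they correlated at −0.33, −0.38 and 0.38 in animals 19, 20 and 24. Alternatives were quantile normalization, normexp, the authors' value table, a stricter and no filter on dim probes, trend and robust variances, no block and leaving out each animal. All arrays came from 1 slide and 1 scan, and the number of arrays limits the precision. The period of each dose was not used here.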

Additional observations from a re-analysis of the deposited data

How the results depend on the processing

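All 10 genes kept a gap over 2 log2 units under every scaling, background and array choice run, with gaps of 6.96 to 12.45; the lowest came with normexp. In the dose comparison without animal 23, 0 of the 10 genes were called under every alternative run, with limma adjusted p-values of 0.845 to 1.00 over every gene tested in any of them. Without the replicate block 0 genes were called as well, with 40 probes at an unadjusted p under 0.05, and the block changed no other call. Over the alternatives, 3 (normexp) to 613 (without animal 20) probes had an unadjusted p under 0.05, against 50. Leaving out the arrays with the lowest 75th percentiles, with no block, called 4 probes in all and 0 of the 10 genes; this alternative and those on slide rows were chosen after seeing the data. The count of genes called was also 0 without each animal in turn. Leaving out each animal in turn, the log2 difference ranged from −0.37 to 0.044 for CPA1, −0.47 to 0.054 for CTRB2, −1.25 to −0.29 for PRSS1, −0.73 to 0.30 for CELA1 and −0.40 to 0.51 for PNLIPRP2. Its sign turned for CPA1 without animal 19 (0.044), CTRB2 without animal 20 (0.054), CELA1 without animal 24 (0.30) and PNLIPRP2 without animal 19 (−0.035) or 24 (−0.40). With quantile normalization PNLIPRP2 was at −0.027 and with normexp at −0.043. The count of genes above all of slide row 1 was 1 with normexp against 7 otherwise, and the cause was not tested. Without animal 19 or animal 20 it was also 7, but the share of all probes rose to 19.2% and 17.1%, from 10.2%. Below the background flag the signals have no firm order, which limits PRSS2, CPB1, CEL, PLA2G1B and GP2 on row 1 and PRSS2 on the 4 g array of animal 24.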
